A study of Mus musculus with 56 samples.

Results

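Microglia without the fractalkine receptor Cx3cr1 were profiled in barrel cortex, where touch of the whiskers is represented, through the RNA bound to their tagged ribosomes. The comparison took every library of the knockout line, chosen by the genotype and the fraction in the library names. These were 20 of the 56 libraries of the series, 10 of bound RNA and 10 of unbound RNA, 1 of each from 10 pieces of cortex. The pieces came from 5 mice, 3 female and 2 male. The mice carried a tamoxifen-activated Cre recombinase in both copies of Cx3cr1 and 1 copy of a Cre-dependent ribosome tag, Cx3cr1CreErt2/CreErt2(Litt) Eef1a1LSL.eGFPL10a/+. All 5 received tamoxifen on postnatal days 1 to 3, and all had the whiskers of the right side cauterised on day 4. The cortices were taken 24 h later, on day 5. The left cortex of each mouse was the deprived piece and the right cortex the control piece, so there was no mouse without tamoxifen or lesion. Both pieces of a mouse share an animal, and p-values below measure the spread between pieces. Cx3cr1 drives the Cre, so any cell that had used this gene by the days of tamoxifen can carry the tag.

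A pair of further lines served as references. In the heterozygous microglial line, with 8 bound and 8 unbound libraries the Cre sat in 1 copy of Cx3cr1 (Cx3cr1CreER/+ (Litt)), and the tag allele, tamoxifen and side of the lesion were labelled the same. The titles of that line call both sides deprived in mouse 17 and both sides control in mouse 21, so its sides and conditions do not match throughout. In the astrocyte line, Aldh1l1EGFP-L10a/+, with 10 bound and 10 unbound libraries, the Aldh1l1 promoter drove the tagged protein without tamoxifen, and the lesion was the same.

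Microglia are the resident macrophages of the brain. They depend on signals through the receptor Csf1r and on the transcription factor PU.1, encoded by Spi1, sense neurons through fractalkine and purines, and engulf cells and synapses with the help of complement. The method, translating ribosome affinity purification, pulls down ribosomes that carry the protein L10a fused to EGFP together with the messages they hold. A message enriched in bound over unbound RNA was more abundant, relative to the other messages, on the captured material than in the rest of the tissue.

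The start sites of 4 enriched microglial genes that held the element searched are shown. They are the complement gene C1qc, the protease Ctss, the integrin Itgam and the lipid receptor Trem2. The windows of Aif1, C1qb, Cx3cr1, Fcer1g and P2ry12, enriched as well, held no match. The element searched was GAGGAAG, the core of the DNA element that PU.1 binds, or CTTCCTC on the other strand, and it is set in capitals. Each sequence runs 5′ to 3′ on the strand of the gene from 250 bases before to 50 bases after the RefSeq start (build GRCm38.p6).
C1qc, chr4:136892865-136893164, minus strand: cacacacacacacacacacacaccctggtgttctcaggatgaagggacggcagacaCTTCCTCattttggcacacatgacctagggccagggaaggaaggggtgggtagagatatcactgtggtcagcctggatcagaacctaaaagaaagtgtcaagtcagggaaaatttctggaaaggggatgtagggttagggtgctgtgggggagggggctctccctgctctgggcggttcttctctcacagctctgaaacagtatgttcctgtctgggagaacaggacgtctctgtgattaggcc
Ctss, chr3:95526536-95526835, plus strand: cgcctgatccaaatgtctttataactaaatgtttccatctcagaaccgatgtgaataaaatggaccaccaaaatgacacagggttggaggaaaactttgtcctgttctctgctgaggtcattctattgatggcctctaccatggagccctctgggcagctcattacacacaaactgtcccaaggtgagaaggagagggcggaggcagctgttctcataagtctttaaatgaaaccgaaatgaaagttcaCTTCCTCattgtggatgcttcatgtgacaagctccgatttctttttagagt
Itgam, chr7:128062390-128062689, plus strand: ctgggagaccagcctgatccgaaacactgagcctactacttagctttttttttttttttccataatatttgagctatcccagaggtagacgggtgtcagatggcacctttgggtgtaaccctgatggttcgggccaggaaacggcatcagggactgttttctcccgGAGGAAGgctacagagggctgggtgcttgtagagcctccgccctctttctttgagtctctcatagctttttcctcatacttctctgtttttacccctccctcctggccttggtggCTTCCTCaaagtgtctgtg
Trem2, chr17:48346151-48346450, plus strand: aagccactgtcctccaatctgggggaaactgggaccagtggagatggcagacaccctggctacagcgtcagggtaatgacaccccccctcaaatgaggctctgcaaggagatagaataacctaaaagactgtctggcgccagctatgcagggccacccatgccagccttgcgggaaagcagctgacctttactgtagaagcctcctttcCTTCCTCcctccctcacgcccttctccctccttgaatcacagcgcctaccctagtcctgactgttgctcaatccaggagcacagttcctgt
Of the 18 homeostatic microglia genes with a sequence in the table, 8 (44.4%) held the element in this window. It occurred in 23.7% of 497 genes with a sequence that were enriched at least 2-fold here and more than in the astrocyte line. The shares were 15.8% of 12402 genes tested and 15.4% of all 27025 genes with a sequence. Of the 20 genes of the enriched set with the highest bound level per length, 14 had a sequence and 2 (14.3%) held it. A gene counted once, with a match in any of its windows. A match is a description of these letters, and its use in these cells was not tested.

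The bound libraries held 35.8 to 53.9 M counts and the unbound libraries 34.6 to 56.7 M. Mitochondrial ribosomal RNA took 1.41 to 3.53% of the counts of a bound library and 22.0 to 31.1% of an unbound one, and the highest bound share was that of control piece 18R. With the mean of each fraction and condition subtracted, in 10 of 10 pieces the bound library was most correlated with the unbound library from the same tissue. Cx3cr1 itself was listed at 0.335 to 1.25 CPM (counts scaled to library size) in bound libraries, with a median of 0.765, and at 0.0452 to 0.223 in unbound ones, with a median of 0.0636. The remaining counts at the locus cannot be assigned to Cx3cr1 alone, since another annotated gene overlaps it and the strand used in counting is not given in the sources used here. No row for the tag transcript was in the knockout table.

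Enrichment was tested for 18255 genes with edgeR's quasi-likelihood test, with the tissue piece as a block, so that each bound library was set against the unbound RNA of the same tissue. At an adjusted p under 0.05, 6465 genes (35.4%) were enriched and 6425 (35.2%) were depleted, so that 70.6% passed in either direction. At least 2-fold enrichment was found for 1194 genes (6.54%) and at least 2-fold depletion for 908 (4.97%). In 2377 genes (13%) every bound library lay above every unbound library, and in 2086 (11.4%) every bound library lay below. Differences are given below as log2 bound minus unbound with the standard error of the fit. The median over all genes tested was -0.01, and each list count below is to be read against 35.4% enriched and 35.2% depleted. Enriched and depleted messages differed in kind. Protein-coding genes had a median of 0.05, long noncoding RNAs -0.19, processed pseudogenes -0.56 and TEC loci, gene models that await experimental proof, -0.75. TEC loci made up 337 and protein-coding genes 263 of the 908 genes depleted at least 2-fold. The 263 protein-coding genes depleted at least 2-fold had a median exon length of 1825 bases, against 4531 bases for all 14590 protein-coding genes tested with a length.

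Genes of homeostatic microglia, the set that marks these cells in undisturbed brain, were enriched almost without exception. Of the 25 genes in the list, 23 were measured well enough to test, 22 were enriched and all 22 at least 2-fold. Their median was 2.57, and in 20 of them the bound and unbound libraries did not overlap. Adora3 and Ltc4s were too low to test. The remaining member, Sparc, a matrix protein that astrocytes and vessels also make, was depleted (-0.41 ± 0.04).

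C1qc, a chain of the complement protein C1q that tags synapses for removal, was at 10.8 to 41.7 CPM in bound libraries (median 28.9) and at 2.21 to 3.83 in unbound ones (median 2.98). The groups did not overlap, and the log2 difference was 3.03 ± 0.15 (n = 10 pieces, edgeR adjusted p = 2.8e-13). Csf1r, the receptor for the growth factors Csf1 and Il34 on which microglia depend, was at 12.3 to 46.1 CPM bound (median 27.1) and 2.67 to 5.27 unbound (median 4.21). Again all bound libraries lay above all unbound ones, with a difference of 2.62 ± 0.11 (edgeR adjusted p = 1.6e-14). Exons of Csf1r and P2ry12 also overlap those of another gene, whose reads may be shared.

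The calcium-binding protein Aif1, known as Iba1, reached 3.20 ± 0.19, with bound levels of 8.65 to 34.0 CPM against 1.80 to 2.88. Tyrobp, the adaptor through which Trem2 signals, had the highest bound level of the list per exon length, 41.8 RPKM (CPM per kilobase of exon), and a difference of 3.07 ± 0.15. C1qb followed at 28.6 RPKM and 2.90 ± 0.15. The counts at Cx3cr1 were enriched as well, by 3.12 ± 0.26, although they stood at 0.173 RPKM.

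Trem2, which binds lipids and lipoproteins, was at 1.87 to 8.14 CPM bound and 0.389 to 1.16 unbound, a difference of 2.75 ± 0.25. The purine receptor P2ry12, by which resting processes sense released nucleotides, was at 4.49 to 24.1 CPM bound (median 13.9) and 2.15 to 4.05 unbound (median 2.61). Its difference was 2.18 ± 0.16. Slc2a5, a fructose transporter, was the least enriched of the list apart from Sparc, at 1.15 ± 0.23 with overlapping groups. Sall1, a transcription factor that maintains microglial identity and is also found in neural progenitors, stood at 1.34 ± 0.06.

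**Figure D1:**
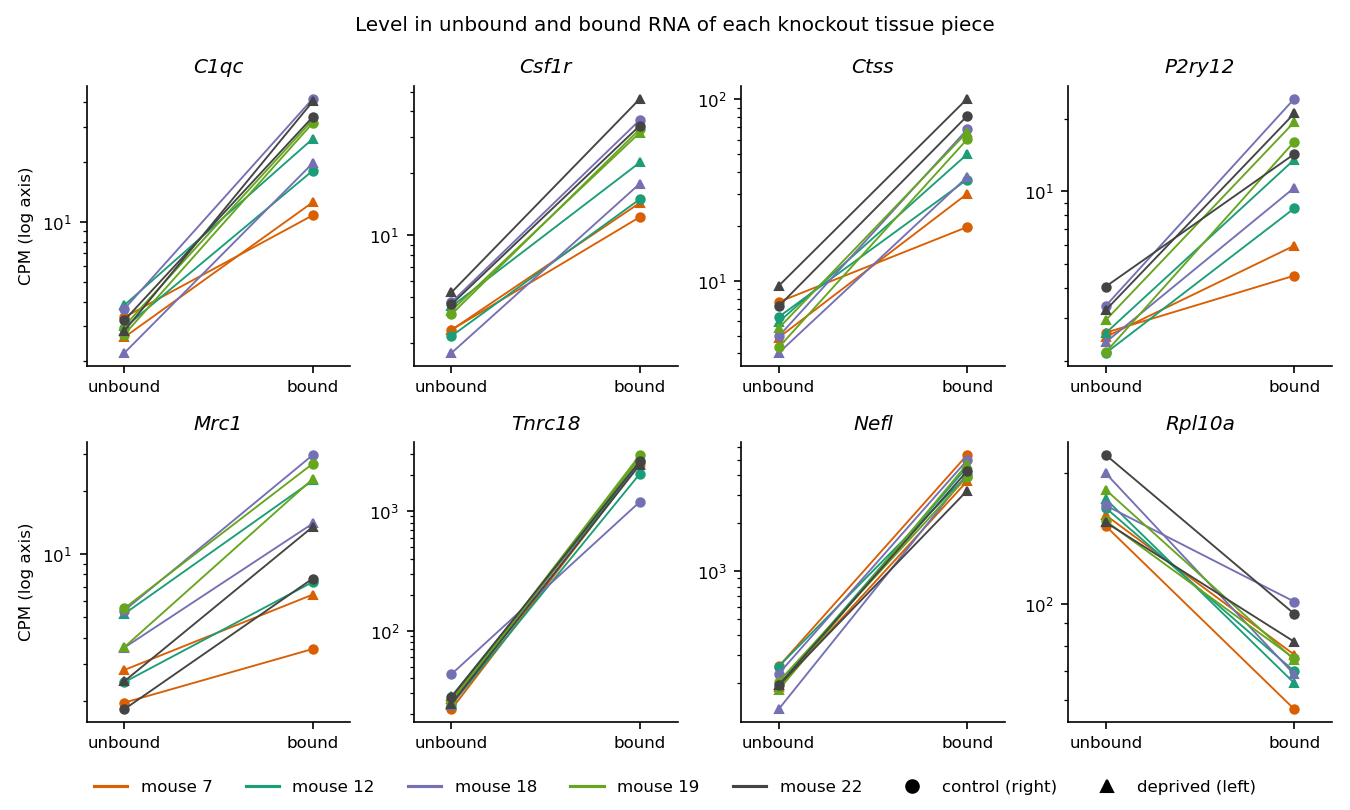
Levels of 8 genes in the unbound and bound library of each of the 10 knockout tissue pieces, in CPM on a log axis; lines join the libraries of a piece, colours mark the mouse, circles control and triangles deprived pieces. C1qc, Csf1r, Ctss and P2ry12 lie higher in every bound library than in any unbound one, and the pieces of mouse 7 have the 2 lowest bound levels of C1qc, Csf1r, P2ry12 and Mrc1; Tnrc18 is lowest in the bound library of 18R.

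The size of this enrichment varied between animals. The median over the homeostatic list was 1.80 and 1.27 in the left and right piece of mouse 7, 2.33 and 2.06 in mouse 12, and 2.43 and 2.92 in mouse 18. It was 3.05 and 2.89 in mouse 19 and 3.12 and 2.70 in mouse 22. Mouse 7 gave the 2 lowest values of the 10 pieces. The summed level of the list lay between 193 and 479 CPM in bound libraries, with 220 and 193 CPM in mouse 7, and between 102 and 143 CPM in unbound ones, with 119 and 122 CPM in mouse 7. Without mouse 7, a fit added after its values were seen, 22 of 23 members remained enriched with a median of 2.77. In whole tissue and pulldowns alike, fewer tagged cells and less RNA per cell cannot be told apart.

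Regulators of the myeloid lineage were enriched in the same direction. Of 29 genes of the Csf1 axis and of myeloid transcription and signalling, 26 were enriched and 0 depleted, with a median of 1.59. Vav1, a signalling protein of blood cells, led with 3.32 ± 0.15. Spi1 was at 2.15 to 10.3 CPM bound and 0.519 to 0.915 unbound, 2.82 ± 0.20. Irf5 (2.89 ± 0.21) and Irf8 (2.22 ± 0.14), interferon regulatory factors of macrophages, were enriched too. Mef2c, which excitatory neurons express as well, had the highest bound level of this list per length (173 RPKM) and a difference of 0.07 ± 0.03 that did not pass (edgeR adjusted p = 0.068).

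Complement genes moved in both directions. Of 17 tested, 11 were enriched and 3 depleted, with a median of 1.42. The receptor subunits Itgb2 (3.04 ± 0.15) and Itgam (2.69 ± 0.16), which form complement receptor 3, were among the enriched, with C1qa (2.54 ± 0.24). The central component C3 was at 0.897 to 3.65 CPM bound and 0.317 to 1.22 unbound, 1.42 ± 0.21, with overlapping groups. The depleted members were Clu (-0.97 ± 0.07), Serping1 (-0.60 ± 0.12) and Cd59a (-0.43 ± 0.12), a chaperone and inhibitors that other brain cells also make.

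Phagocytic receptors showed 25 enriched and 4 depleted members of 29, with a median of 1.39. Fcer1g, the signalling chain of Fc receptors, was at 13.8 to 59.5 CPM bound (median 34.0) and 4.05 to 6.88 unbound (median 4.82), 2.63 ± 0.14, with no overlap. Stab1, a scavenger receptor, reached 2.73 ± 0.14. Lrp1, a large endocytic receptor that neurons and astrocytes also express, was at 147 to 398 CPM bound and 60.2 to 82.3 unbound, 1.72 ± 0.10. The bridging protein Mfge8 (-0.62 ± 0.06) and the adaptor Gulp1 (-0.59 ± 0.06) were depleted.

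Lysosomal genes were enriched in 20 of 27 cases and depleted in 2, with a median of 0.62. Ctss, a cathepsin of antigen-presenting cells, had the highest enrichment, with 19.8 to 101 CPM bound (median 55.0) and 4.02 to 9.41 unbound (median 5.73), 3.08 ± 0.17 and no overlap. Laptm5, a lysosomal membrane protein of blood cells, stood at 2.63 ± 0.12, and the phagosome protein Cd68 at 2.14 ± 0.13. Ctsd reached 1.78 ± 0.11 and Grn, which encodes progranulin, 1.55 ± 0.11. The saposin precursor Psap was depleted (-0.85 ± 0.05) with every bound library below every unbound one, and Npc1, which exports cholesterol, was depleted by less (-0.35 ± 0.06).

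Genes of activated and axon-tract microglia, the phagocytic state found in developing white matter, gave 11 enriched and 3 depleted of 16, with a median of 0.38. The secreted phosphoprotein Spp1 was at 9.77 to 28.2 CPM bound and 1.69 to 6.36 unbound, 2.34 ± 0.13, and Gpnmb reached 2.37 ± 0.16. Cst7, a cystatin, had the largest difference (2.63 ± 0.29) at a bound median of only 0.727 CPM. Other members, which astrocytes, neurons or progenitors also express, had smaller or negative differences. Apoe was at 0.30 ± 0.10 and above 0 in 7 of 10 pieces (0.29 and not past the threshold with DESeq2), the lipase gene Lpl at -0.15 ± 0.05 (-0.11 and not past it without mouse 7), and the fatty acid carrier Fabp5 at -1.01 ± 0.04.

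Innate sensors and effectors were mostly enriched. Of 21 Toll-like receptor and NADPH oxidase genes, 18 were enriched and 0 depleted, with a median of 2.01. The chaperone of Toll-like receptors Unc93b1 (2.98 ± 0.16) and Ly86 (2.84 ± 0.13), a partner of Cd180, led, and Ly86 was at 11.7 to 35.0 CPM bound against 2.23 to 4.11. Of 23 cytokine and NF-kB genes, 21 were enriched and 0 depleted, with a median of 1.46. The chemokine Ccl12 was at 7.33 to 18.6 CPM bound and 0.935 to 3.75 unbound, 2.63 ± 0.17. Nlrp3, the inflammasome sensor, reached 2.58 ± 0.25 at a bound median of 1.04 CPM. Tnf, Il6, Il10, Ccl4, Cxcl2 and Osm were too low to test.

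Genes of antigen presentation moved in both directions. Of 17 tested, 11 were enriched and 2 depleted, with a median of 0.78. The class I genes H2-K1 (1.52 ± 0.08) and B2m (1.06 ± 0.10) were enriched, and B2m stood at 334 RPKM in bound RNA. The class II genes H2-Aa (-1.14 ± 0.29) and H2-Eb1 (-0.47 ± 0.20) were depleted, both with bound medians under 0.5 CPM, and H2-Eb1 did not pass with DESeq2 (-0.47). Interferon-response genes were mixed, with 11 enriched and 4 depleted of 23 and a median of 0.18, an enriched share not far above the 35.4% of all genes. Ifi27l2a (1.65 ± 0.17) and Oas1a (1.53 ± 0.13) were enriched and Isg15, a ubiquitin-like modifier, was depleted (-1.08 ± 0.11), with bound libraries at 2.25 to 3.36 CPM and unbound ones at 3.60 to 9.38.

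Markers of border macrophages and monocytes, other cells of the myeloid lineage, were enriched along with those of microglia. Of 16 tested, 13 were enriched and 1 depleted, with a median of 1.63. The mannose receptor Mrc1, a marker of border macrophages, was at 3.53 to 29.6 CPM bound (median 13.7) and 1.82 to 5.51 unbound (median 3.19), 2.01 ± 0.13. The hyaluronan receptor Lyve1 spanned 0.715 to 31.7 CPM bound and 0.763 to 7.26 unbound, 1.73 ± 0.17, and the chemokine Pf4 0.134 to 8.38 bound and 0.186 to 1.15 unbound, 2.29 ± 0.24. These genes varied more between pieces than C1qc or Csf1r, and their groups overlapped. The neutrophil genes S100a8 (-0.52 ± 0.24, edgeR adjusted p = 0.06) and S100a9 (-1.02 ± 0.18) lay below 0. The whole list summed to 12.9 to 132 CPM in bound libraries and 7.58 to 27.4 in unbound ones, lowest in 7R (12.9) and highest in 18R (132). None of its 13 enriched members had a bound median of 0. The part of border macrophages in the genes they share with microglia was not tested.

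**Figure D2:**
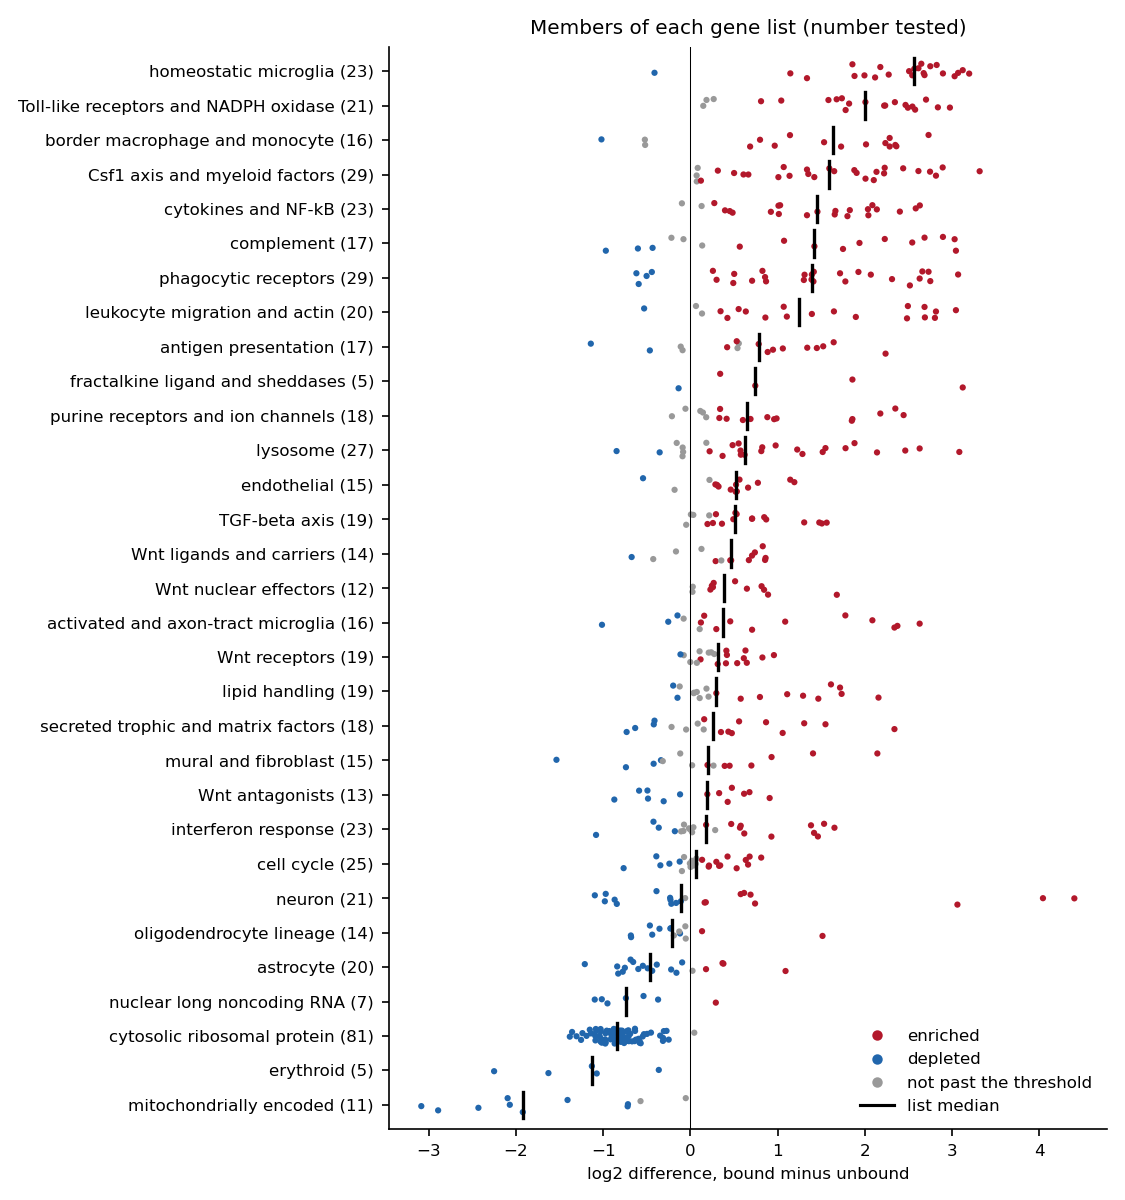
Log2 bound minus unbound of every tested member of the 31 gene lists, with lists ordered by their median (black bar); red members were enriched, blue depleted and grey not past the adjusted p of 0.05. Homeostatic microglia stand at the top with a median of 2.57, and ribosomal protein, erythroid and mitochondrially encoded genes at the bottom.

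Purine receptors and ion channels gave 13 enriched and 0 depleted of 18, with a median of 0.65. The potassium channel Kcnk6 (2.44 ± 0.20) and P2ry6 (2.35 ± 0.15), a receptor that triggers uptake of debris, were the most enriched. Genes of leukocyte migration and actin were enriched in 17 of 20 cases with a median of 1.25, and Tmsb4x, an actin-binding peptide that neurons express widely, was depleted (-0.53 ± 0.05). Lipid genes ranged from the prostaglandin synthase Hpgds (2.16 ± 0.11) to the sterol regulator Srebf2 (-0.20 ± 0.04), with 10 enriched and 2 depleted of 19 and a median of 0.30.

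The partners of Cx3cr1 were measured in the same libraries. Its ligand Cx3cl1, made by neurons and cut from the membrane by Adam10 and Adam17, was depleted by little (-0.14 ± 0.05), with 10.6 to 22.5 CPM bound and 12.8 to 22.9 unbound and overlapping groups, and it did not pass without the piece block (-0.13). Adam17 (0.74 ± 0.07) and Adam10 (0.34 ± 0.04) were enriched, as was Rhbdf2, which brings Adam17 to the cell surface (1.86 ± 0.27).

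The TGF-beta axis, on which microglial maturation depends, had 15 enriched and 0 depleted members of 19, with a median of 0.52. Against the astrocyte line, enrichment was larger for 7 of the 19 and smaller for 4. Nrros, which microglia use to present the latent ligand, was at 2.35 to 6.89 CPM bound and 1.01 to 2.19 unbound, 1.48 ± 0.13. The receptor Tgfbr2 (1.51 ± 0.09), the latent binding protein Ltbp1 (1.56 ± 0.09) and the ligand Tgfb1 (1.30 ± 0.22) were enriched, and Tgfb1 overlapped between groups.

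Wnt signalling, named in the title of the study, was covered by 4 lists. Wnt ligands and their carriers gave 9 enriched and 1 depleted of 14 tested, none of them by 2-fold, with a median of 0.46. Wnt9a (0.86 ± 0.08), Wnt5a (0.83 ± 0.06), Wnt4 (0.74 ± 0.09) and Wnt7a (0.67 ± 0.06) were enriched, with bound medians of 6.40, 17.6, 10.6 and 7.19 CPM. Porcn, the enzyme that adds a lipid to Wnt proteins, was depleted (-0.67 ± 0.07). Receptors gave 11 enriched and 1 depleted of 19 (median 0.31), with the co-receptor Lrp6 at 0.65 ± 0.04 and Fzd3, the highest per length at 38.7 RPKM, at 0.12 ± 0.04. Antagonists split into 7 enriched and 6 depleted of 13 (median 0.19), from Kremen1 (0.91 ± 0.08) to Sostdc1 (-0.87 ± 0.07). Nuclear effectors and the destruction complex gave 10 enriched and 0 depleted of 12 (median 0.39). Axin2, a target of the pathway, was at 0.65 ± 0.05. Apc, which holds beta-catenin in the destruction complex, was at 462 RPKM and 1.68 ± 0.08. The background share of enriched genes, 35.4%, applies to each of these counts. Much of this was not particular to the microglial pulldown. Knockout minus astrocyte line, the median difference in enrichment was 0.03 for ligands, -0.004 for receptors, -0.02 for antagonists and 0.15 for nuclear effectors. Enrichment was larger and smaller in the knockout line for 2 and 2 of 14, 3 and 4 of 19, 1 and 4 of 13, and 5 and 1 of 12 genes.

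Trophic and matrix factors gave 10 enriched and 4 depleted of 18 (median 0.25). Igf1, a growth factor that microglia supply to young neurons, was at 37.4 to 51.5 CPM bound and 25.6 to 44.9 unbound, 0.16 ± 0.07 (edgeR adjusted p = 0.046), and above 0 in 6 of 10 pieces. The call was lost with limma-voom (0.11). Ptn, pleiotrophin, was depleted (-0.73 ± 0.04) with no overlap. Of 25 cell cycle genes, 12 were enriched and 5 depleted (median 0.07), where 35.4% and 35.2% of all genes were. Mki67 stood at 0.68 ± 0.04 and Ccnb1 at -0.77 ± 0.09.

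Markers of other brain cells were measured in the same libraries. Astrocyte markers were depleted in 15 of 20 cases and enriched in 4, with a median of -0.46. The glutamate transporter Slc1a3 was at 32.1 to 68.6 CPM bound and 63.5 to 115 unbound (-0.84 ± 0.04), the water channel Aqp4 at -0.83 ± 0.04 and Sparcl1 at -1.21 ± 0.04. Gfap, the intermediate filament of astrocytes, went the other way, at 42.5 to 90.7 CPM bound and 21.1 to 41.4 unbound (1.09 ± 0.05), with no overlap. Oligodendrocyte-lineage genes gave 2 enriched and 8 depleted of 14 (median -0.21), and the proteoglycan Cspg4 was the exception at 1.51 ± 0.09. Endothelial genes were enriched in 12 of 15 cases, with a median of 0.52 and Kdr, the receptor for Vegfa, at 1.19 ± 0.09. Mural and fibroblast genes gave 7 enriched and 4 depleted of 15 (median 0.20), near the 35.4% and 35.2% of all genes. Haemoglobin and other erythroid genes were depleted in 5 of 5 cases, with Hbb-bs at -1.63 ± 0.07.

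Neuronal messages remained abundant in bound RNA. The neuron list summed to 13930 to 16720 CPM in bound libraries and 11790 to 14170 in unbound ones. Without the 3 neurofilament genes the sum was lower in bound RNA, 8986 to 10693 CPM against 11387 to 13847. Of its 21 genes 9 were enriched and 11 depleted, with a median of -0.11. Snap25, a synaptic fusion protein, was at 812 to 1017 CPM bound and 1576 to 2159 unbound (-0.97 ± 0.04), and Map2, a dendritic protein, was depleted likewise (-1.10 ± 0.04). The neurofilament genes Nefl, Nefh and Nefm were enriched by 4.40 ± 0.08, 4.04 ± 0.09 and 3.06 ± 0.07. Nefl was at 3196 to 5351 CPM bound and 136 to 253 unbound, and its bound level per exon length was 1258 RPKM, against 41.8 RPKM for Tyrobp.

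Pooled below as myeloid lists were homeostatic microglia, complement, Csf1 axis, phagocytic receptors, activated microglia, lysosome, and cytokines and NF-kB. Toll-like receptors, antigen presentation, border macrophages, leukocyte migration, purine receptors and lipid handling were pooled with them. Each had 16 to 29 of the 18255 genes tested, some of which other brain cells also express. The most enriched named coding genes (predicted Gm genes left out) with a mean log2 CPM of at least 3 were in none of the myeloid lists. They were Tnrc18 (6.49 ± 0.17), Yeats2 (6.32 ± 0.17), Bahcc1, Rai1, Bcor, Kdm6b, Gse1, Gli2, Nefl and Jmjd1c (4.32 ± 0.16). Tnrc18, Bahcc1, Yeats2, Kdm6b and Jmjd1c encode chromatin proteins. Tnrc18 was at 1196 to 2940 CPM bound (median 2543) and 22.0 to 43.3 unbound (median 25.3). The enriched genes with the highest bound level per length that exceeded the astrocyte line included Apc, Nav1, Kdm6b, Adcy1, Hecw1 and Nefm. B2m was the only member of a myeloid or immune list among the 20.

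A set of 125 genes, formed after the values were seen, was enriched at least 4-fold in the knockout line and by less than 2-fold more than in the astrocyte line. It held 2 genes of the myeloid lists, and Yeats2, Bahcc1, Gse1, Gli2, Nefl, Nefh and Ubr4 belonged to it. Its genes were long, with a median exon length of 7577 bases, and together took 32036 to 55894 CPM of bound libraries. Piece 18R was the lowest in this set. Its median over the 125 genes was 2.35 and those of the other pieces 2.46 to 2.80. Outside the set, its difference for Tnrc18 was 4.79 against 6.42 to 6.89, and for Rai1 2.88 against 5.07 to 5.74. In 18R the depletion of ribosomal protein genes was also smaller, with a median of -0.46 against -0.96 to -0.72. The homeostatic list was not lower there, at 2.92. Mouse 7 was not low in the 125 genes, at 2.69 and 2.74.

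**Figure D3:**
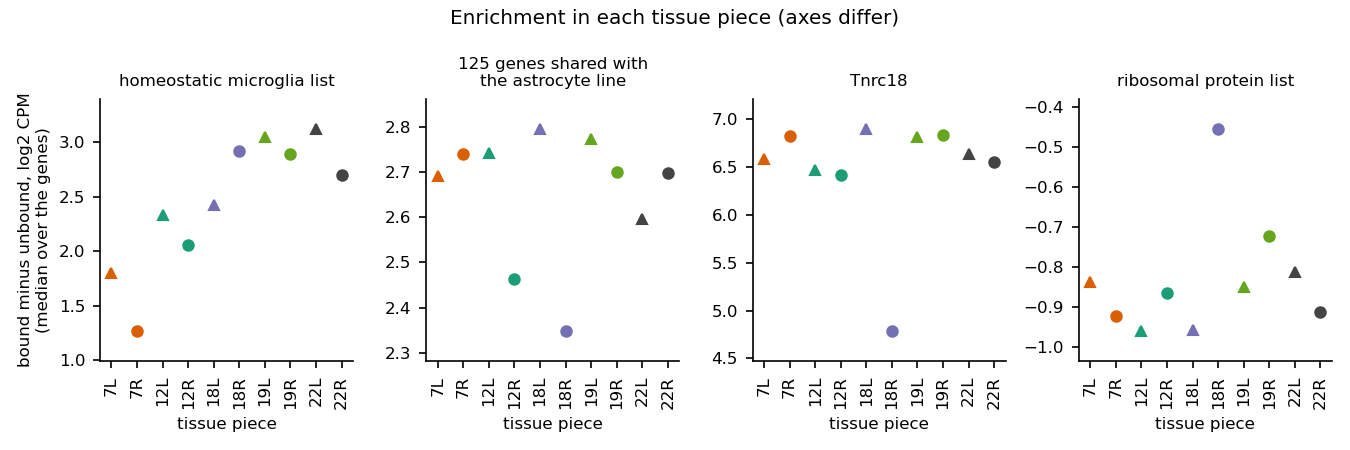
Enrichment in each tissue piece (log2 CPM, bound minus unbound) of 4 measures: the median over the homeostatic microglia list, the median over the 125 genes shared with the astrocyte line, Tnrc18, and the median over ribosomal protein genes; colours mark the mouse, circles control and triangles deprived pieces. The 2 pieces of mouse 7 are lowest in the first panel (1.80 and 1.27), and 18R is lowest in the next 2 (2.35 and 4.79) and highest in the last (-0.46).

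Besides the erythroid list (5 of 5), the most uniformly depleted lists were those of the ribosome, mitochondria and nucleus. Ribosomal protein genes, which code for the translation machinery itself, were depleted in 80 of 81 cases with a median of -0.84. Rpl10a, the native counterpart of the tagged protein, was at 57.0 to 101 CPM bound and 151 to 220 unbound (-1.19 ± 0.06), with no overlap. Mitochondrially encoded genes, which mitochondrial ribosomes translate, were depleted in 9 of 11 cases (median -1.92), with mt-Co1 at -2.89 ± 0.08 and the ribosomal RNA mt-Rnr1 at -4.34 ± 0.15. Other strongly depleted genes were the histones H1f4 (-1.68 ± 0.10) and H3f3a and the cold-inducible gene Rbm3 (-1.48 ± 0.06). Nuclear long noncoding RNAs were depleted in 6 of 7 cases (median -0.74), among them Malat1 (-1.02 ± 0.06) and Meg3 (-1.10 ± 0.07).

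The enrichment was next compared with that in the astrocyte line, to separate what the microglial pulldown holds beyond a pulldown of the same kind from another cell type. The tables of the lines were counted separately, and the labels give polyA RNA as the molecule for the knockout and total RNA for both other lines, so each line was first compared with its own unbound RNA. This removes only differences that are equal in both fractions. The astrocyte libraries were also shallower, with 10.9 to 28.6 M counts bound and 10.1 to 24.3 M unbound. Cell type cannot be told apart from labelled molecule, depth and count table here. Of 19972 genes, 4291 (21.5%) had a larger and 4297 (21.5%) a smaller enrichment in the knockout line. With mitochondrially encoded genes left out of the counts the split was 3518 larger and 4938 smaller. Of the homeostatic list 21 of 23 were larger, with a median difference of 2.96, and Sparc was smaller. Sall1 did not pass (-0.05 ± 0.11, edgeR adjusted p = 0.77). Enrichment was larger for 24 and smaller for 0 of 29 Csf1 axis genes, and 14 and 1 of 21 Toll-like receptor and oxidase genes. Other lists were more mixed. The counts were 15 and 6 of 29 for phagocytic receptors, 16 and 6 of 27 for lysosomal and 8 and 4 of 16 for activated microglia genes. They were 4 and 4 of 17 for antigen presentation and 3 and 2 of 23 for interferon response.

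The largest differences among genes with a mean log2 CPM of at least 3 were those of Ctss (4.19 ± 0.31), Ly86 (4.14 ± 0.26), C1qc (3.72 ± 0.29), Spp1 (3.45 ± 0.39) and C1qb (3.43 ± 0.30). Csf1r stood at 3.23 ± 0.25. The smallest were those of mt-Rnr1 (-2.99 ± 0.20), Dbi (-2.87 ± 0.12), which encodes a ligand of benzodiazepine sites made by astrocytes, the unnamed loci Gm15564 and CT010467.1, and Cst3 (-2.64 ± 0.10), a cystatin. Of the astrocyte markers 19 of 20 were smaller, with a median of -1.62, and Gfap was one of them (-1.51 ± 0.15). Tnrc18 was larger in the knockout line (1.42 ± 0.14) and Yeats2 smaller (-0.63 ± 0.15), while Nefl did not pass (0.18 ± 0.12, edgeR adjusted p = 0.24).

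**Figure D4:**
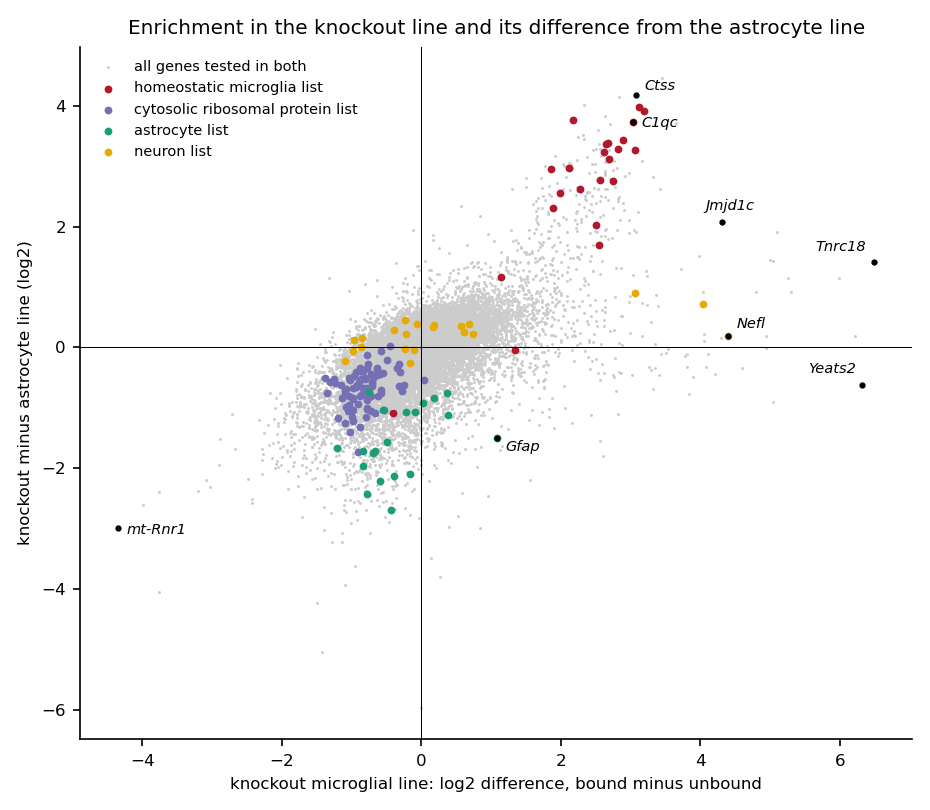
Each point is a gene: the x axis gives the log2 bound minus unbound difference in the knockout line and the y axis the knockout minus the astrocyte line's difference (log2), with 4 lists in colour and 8 genes named. Homeostatic microglia genes lie at the upper right with a median of 2.57 on x and 2.96 on y, whereas Tnrc18, Yeats2 and Nefl lie far to the right at 1.42, -0.63 and 0.18 on y.

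A set of 142 genes was enriched at least 2-fold and exceeded the astrocyte line at least 4-fold. The limits were set after the values were seen, so the set is a description. It held 69 genes of the myeloid lists, and 138 of the 142 were protein-coding, as were 14595 of all 18255 genes tested. Members outside those lists included Bcl2a1d, Cd53, Cd52, Pld4, Lyz2, Adgre1, Ptafr, Ptpn6, Bin2 and Cyth4, genes known from blood cells, and the chromatin gene Jmjd1c; these examples were chosen after their values were seen. The set had a median bound level of 4.40 CPM and a median unbound level of 0.731. Together its genes took 2812 to 5429 CPM of bound libraries, with a median of 4133, against an unbound median of 356. This sum includes genes outside the myeloid lists, such as Jmjd1c, and does not measure the myeloid genes alone. Ctss, Lyz2 and C1qb had bound medians of 55.0, 37.6 and 33.7 CPM. By piece its median ran from 1.37 in 7R to 2.74 in 18R.

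Enrichment in the knockout line was then set against that in the heterozygous line. Besides Cx3cr1, the lines differed in copies of the Cre, labelled molecule, count table and match of side to condition. The loss of Cx3cr1 cannot be told apart from these. None of 19526 genes (0.0%) passed (edgeR, 1226 or 6.28% at unadjusted p under 0.05). DESeq2 called 8 genes, and limma-voom called Ccnb2. The 3 smallest p-values belonged to Ccnb2, a cyclin of mitosis (-0.70 ± 0.12, edgeR adjusted p = 0.079), Gm48601 (2.42 ± 0.45, 0.083) and the zinc finger gene Zfp874b (0.39 ± 0.08, 0.19). C1qc differed by -0.28 ± 0.20 (edgeR adjusted p = 0.86), Csf1r by -0.20 ± 0.15 (0.87) and the Cx3cr1 locus by 0.45 ± 0.23 (0.79). Of the 25 cell cycle genes, 10 had an unadjusted p under 0.05, and their median was -0.21.

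The homeostatic list had a median of -0.20 in this comparison, with 19 of 23 members below 0. Without mouse 7 the median was 0.00, with 12 members above and 11 below 0. The 142-gene set moved likewise, from a median of -0.25 with 119 members below 0 to -0.04 with 81 below 0. Mouse 7 was left out because its pieces were seen to be lowest, so the upward direction of both shifts followed from that choice. Without 18R the medians were -0.25 for the homeostatic list and -0.31 for the 142-gene set, with 126 below 0. Over all genes the median was 0.01 in each of these fits, with 51.7% to 52.6% of genes above 0.

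Deprived and control pieces were compared for their enrichment within the knockout line. None of 19681 genes (0.0%) passed (edgeR, 721 or 3.66% at unadjusted p under 0.05), and the count was 0 with DESeq2 and limma-voom too. These tests did not pair the left and right enrichment of a mouse, so differences in enrichment between mice counted as error. The homeostatic list had piece medians of 2.54 ± 0.55 in deprived and 2.37 ± 0.70 in control cortex (SD, n = 5 each). Within mice, deprived minus control was 0.53, 0.27, -0.49, 0.16 and 0.42 in mice 7, 12, 18, 19 and 22, above 0 in 4 of 5, with a mean of 0.18 ± 0.40 (SD). The smallest p-values were those of Ttc19, a protein of mitochondrial complex assembly (0.52 ± 0.12), and of Agtr2 and Gm2814, both with bound medians under 0.2 CPM. Exons of Ttc19 overlap those of Ncor1, a member of the set of 125 genes, whose reads may be shared. The 125 genes shared with the astrocyte line had a median of 0.19, with 97 above 0 and 33 at unadjusted p under 0.05. Without the control piece 18R the median was 0.09, with 86 above 0 and 23 at unadjusted p under 0.05. The same removal raised the median of the homeostatic list from 0.19 (20 of 23 above 0) to 0.36 (23 of 23), and that of the 142-gene set from 0.18 (103 above 0) to 0.30 (121 above 0). Over all genes, 49.2% lay above 0 with every piece and 49.8% without 18R. Members of a set were measured in the same libraries, so these are not counts of independent genes.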

How the data were processed

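The deposited counts are whole numbers of reads per gene, 1 table per line. Per the submitters' processing notes, the authors' tools included the aligner HISAT2 2.2.0, the read counter featureCounts 2.0.0, Trim Galore 0.6.4, FastQC 0.11.9 and cutadapt, with the build GRCm38 (mm10), and strand is not given in the sources used here. Per the labels, the RNA was amplified (NuGEN Ovation V2) and made into Nextera XT libraries. The knockout table held 55385 genes, of which 55144 matched GENCODE M21, the source of exon lengths and of overlaps, and 37130 were too low to test.

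The members and lists were chosen with earlier results of these data known. Counts were scaled with TMM, filtered with filterByExpr and tested with edgeR 4.0.16 (R 4.3.3), with the tissue piece as a block within each line's comparison, Benjamini-Hochberg adjustment and a threshold of 0.05; the comparison with the astrocyte line had no block. Differences by piece used log2 CPM with a prior count of 2. Alternatives were DESeq2 1.42.0, limma 3.58.1 (voom with sample weights), other filters, scalings and blocks, and each piece left out. Pairing in the knockout line comes from the library names. To check it, the mean of each fraction and condition was subtracted from log2 CPM, and the remaining deviations were correlated. Each knockout bound library then correlated best with its own unbound library (10 of 10, r 0.136 to 0.446). These values do not measure the likeness of whole profiles. The fits were tested on simulated data.

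Named genes were the 10 most enriched and 10 most depleted coding genes with a mean log2 CPM of at least 3, the 20 highest per length among those enriched at least 2-fold and more than in the astrocyte line, the highest, most and least enriched of each list, and, for comparisons between conditions or lines, the 5 largest per direction or the 3 with the smallest p. Other genes named were chosen after their values were seen. Some members of the lists are counted but not reported here by name.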

Additional observations from a re-analysis of the deposited data

Results flagged for a closer look

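In 21 of 118 genes and 1 of 33 lists and sets described above, 1 piece lay far from the other 9 (Dixon's test at 95%); chance flags about 1 in 20. Control piece 18R was the distant one in 15 of these. Its log2 bound minus unbound difference was low for Apc (0.70), Bahcc1 (3.97), Bcor (2.89), Gse1 (3.37), Jmjd1c (2.63), Lrp6 (0.34), Rai1 (2.88), Sall1 (0.79), Tnrc18 (4.79) and Yeats2 (4.59). It was higher there than in the other pieces for Wnt4 (1.57), Hbb-bs (-1.09), Map2 (-0.74), Snap25 (-0.63) and the median of the cytosolic ribosomal protein genes (-0.46). Piece 18R also had the highest share of mitochondrial ribosomal RNA among bound libraries, and the part of this in its values was not tested. Piece 7R was distant for Ctss (1.37), Malat1 (-0.53) and Spp1 (1.15), piece 7L for S100a8 (1.36) and Wnt5a (1.26), piece 18L for Fzd3 (0.46) and piece 19L for Wnt7a (0.94).

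Enrichment differed between the knockout and the astrocyte line by the test of the difference itself. It was larger in the knockout line for Ctss (4.19), Ly86 (4.14), C1qc (3.72), Spp1 (3.45), C1qb (3.43), Csf1r (3.23) and Tnrc18 (1.42). It was smaller for Yeats2 (-0.63), Sparc (-1.09), Gfap (-1.51), Cst3 (-2.64), CT010467.1 (-2.67), Gm15564 (-2.77), Dbi (-2.87) and mt-Rnr1 (-2.99).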

How the results depend on the processing

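With each piece left out in turn, 6279 to 6626 genes were enriched, 6145 to 6365 depleted and 1162 to 1234 enriched at least 2-fold, and the other alternatives gave 5958 to 6860, 5762 to 6641 and 1168 to 1586. Without the replicate block by piece, 5958 genes were enriched and 5762 depleted. Against the astrocyte line, 4291 genes were larger and 4297 smaller, and 4074 to 4318 and 4088 to 4425 with 1 piece left out. With a replicate block the counts were 4937 and 4753. The astrocyte labels name no tissue piece, so this block assumed that libraries with the same title number and condition came from the same piece. Sall1 ran from -0.0859 to 0.012 with 1 piece left out, and changed sign without knockout control 18.

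Deprived against control gave 0 genes with any piece left out and without the block, and 51 without the filter on low counts. Of these 51, 48 were also tested with the filter, so most were not genes that the filter removes. Among the 51, 22 belonged to the 125 genes shared with the astrocyte line, in which 18R was lowest. Knockout against heterozygous gave 8 genes with DESeq2, 1 with limma-voom, 112 without the filter (89 of them below 0) and 0 to 2 with 1 piece left out. All 112 were also tested with the filter. Ccnb2 was called without heterozygous control 4 (1 gene), heterozygous deprived 2 (2 genes) or knockout control 18 (2 genes). The cause of these differences was not tested. List counts moved by over 1.5 times in 9 of 588 refits, and single genes of the bound against unbound comparison crossed the threshold in 52 of 2240, with 0 changes of sign. Low counts limit genes with a bound median under 1 CPM.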
